A study of Rattus norvegicus with 8 samples.

Results

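Atf4 and 9 genes that answer to it or stand beside it in the amino acid stress response were followed in the livers of HP diet-fed and control diet-fed rats: Atf4, Atf5, Ddit3, Trib3, Ddit4, Sesn2, Asns, Phgdh, Psat1 and Psph. The genes were listed as known ATF4-responsive genes, in a list drawn up with earlier results of these data known, and every probe set that the array annotation gives that single symbol was kept. The 10 genes had 13 of the 31042 probe sets. A probe set counted as measured where its values spanned at least 0.05 on the log2 scale over the 8 arrays, and 9 probe sets of 7 genes did. The comparison addresses whether the rise of Fgf21, a liver hormone gene, in HP diet-fed rats goes with an ATF4 response.

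The animals were male Wistar rats, 8 weeks old by their label, fed AIN-93G-based diets for 24 days. The control diet held 0.3% phosphorus and the HP (high-phosphorus) diet 1.2%, and 4 rats per diet were used, with 1 array of liver RNA per rat. The labels name no genetic change and no drug in either group. Liver pieces hold several cell types, so that fewer cells of a type and less RNA per cell cannot be told apart.

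ATF4 is a transcription factor made when kinases phosphorylate the translation factor eIF2α, as happens when amino acids run short or proteins misfold in the endoplasmic reticulum; much of this control is on translation, so that the Atf4 transcript need not follow the protein. With C/EBP partners ATF4 binds a composite element, the C/EBP-ATF response element (CARE), and induces genes for amino acid synthesis and uptake, together with Trib3, Ddit3 and other stress genes. Fgf21 encodes a hormone secreted by the liver. Fgf21 and Trib3 are each known to be induced in liver by PPARα, the nuclear receptor of fasting fat use, as well as by ATF4.

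The promoter windows of Trib3 and Fgf21 are shown because, of the 10 genes and Fgf21, these held the core of the CARE. The windows come from RefSeq (build GRCr8, 250 bases before to 50 after the gene start), which matched all 10 genes and Fgf21. The core searched was TGATGNAA on both strands, and capitals mark the match, which lay on the reverse strand of each gene. The Trib3 window was chr3:161275484-161275783 (minus strand), with the match starting 21 bases before the gene start.
Trib3: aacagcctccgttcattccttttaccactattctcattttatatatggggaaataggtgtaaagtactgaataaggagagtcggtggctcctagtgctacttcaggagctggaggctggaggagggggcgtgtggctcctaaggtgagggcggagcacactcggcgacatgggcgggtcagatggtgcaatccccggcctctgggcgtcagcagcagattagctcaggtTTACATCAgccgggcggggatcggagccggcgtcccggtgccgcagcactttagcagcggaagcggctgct
The Fgf21 window was chr1:105221327-105221626 (minus strand), with the match starting 143 bases before the gene start.
Fgf21: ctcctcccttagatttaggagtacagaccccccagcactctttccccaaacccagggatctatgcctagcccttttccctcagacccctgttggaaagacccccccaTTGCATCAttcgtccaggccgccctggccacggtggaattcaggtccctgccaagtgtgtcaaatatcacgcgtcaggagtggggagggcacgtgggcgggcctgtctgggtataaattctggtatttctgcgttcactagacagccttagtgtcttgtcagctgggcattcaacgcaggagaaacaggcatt
Of 33469 RefSeq windows of this length, 3.98% held the core, against 1 of the 10 genes. The endoplasmic reticulum stress element (CCAAT and CCACG with 9 bases between them), held by 0.0657% of all windows, and the PPAR element (AGGNCA, 1 base, AGGNCA), held by 0.415%, were searched on both strands and were in none of these 11 windows, so no match overlapped another motif. A match describes the letters only, and a window without one says nothing of elements further away.

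Trib3 was the single gene of the 10 with a call. Rank products, the study's own method, ranks the differences of all 16 HP and control pairs of arrays over all probe sets, and at a false discovery rate (FDR) under 0.05 it called 2 of the 9 measured probe sets higher in HP diet-fed rats, both of Trib3, and 0 lower. Over all 4155 probe sets spanning at least 0.05 it called 8.5% higher and 12.1% lower (1.14% and 1.62% of all 31099). The 3 Trib3 probe sets read one gene and are not independent, so the call counts for 1 of 7 genes. The limma fit called 0 of the 9 after Benjamini-Hochberg adjustment, where it called 0% of the 4155, and 0 at an unadjusted p under 0.05, where it placed 5.37% higher and 7.29% lower. In no member did all HP diet-fed rats lie above, or all below, the control diet-fed rats, whereas 3.1% of the 4155 had every HP diet-fed rat above and 4.07% every one below. The median log2 difference of the 7 measured genes, each at its probe set of highest mean, was -0.03 (3 positive, 4 negative), beside -0.02 over all 4155.

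**Figure D1:**
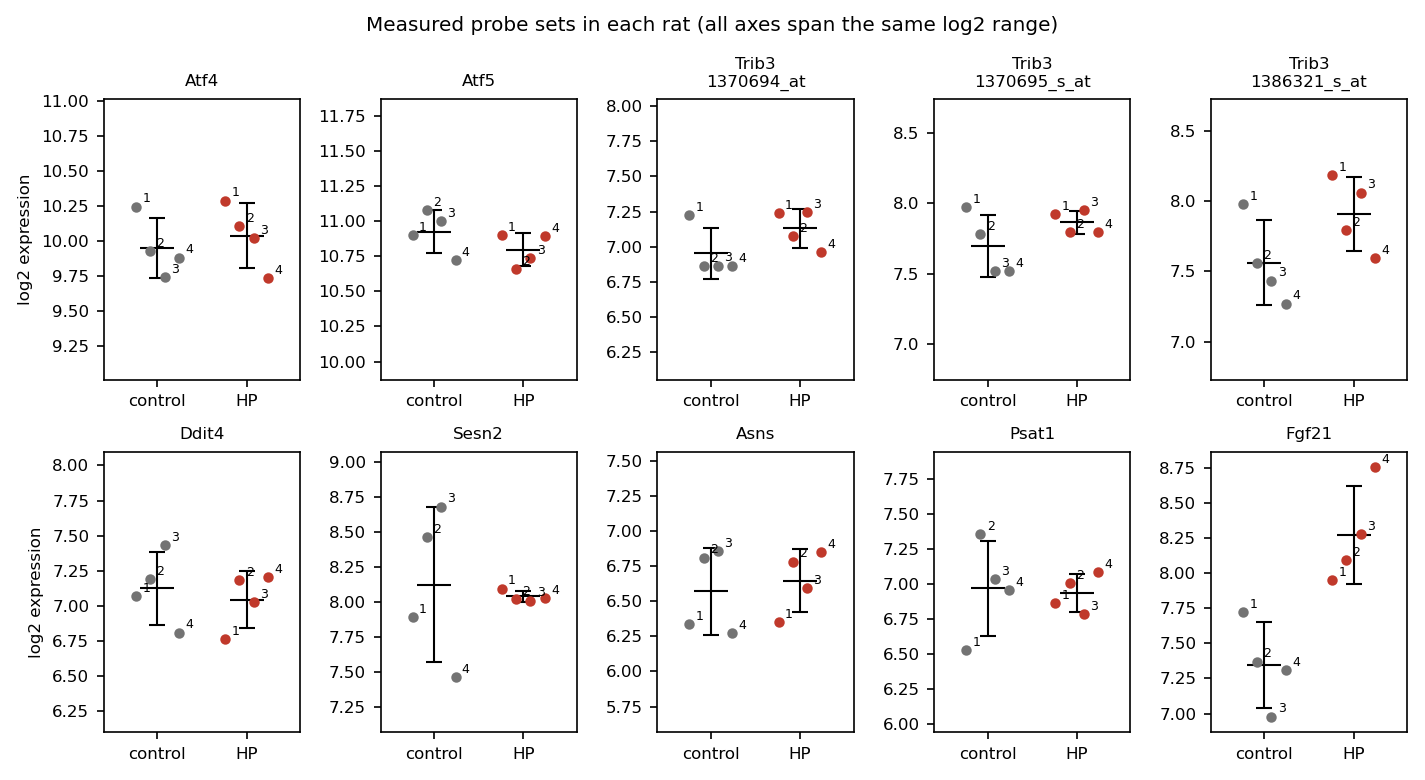
Log2 expression (vertical axis, the same log2 range in each panel) of the 9 measured probe sets and of Fgf21 in control diet-fed rats (grey) and HP diet-fed rats (red). Each point is 1 rat with its replicate number, and bars give the mean ± SD (n = 4 per diet); the diets overlap in every panel but that of Fgf21.

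Among the transcription factors, Atf4 itself (1367624_at) stood at 10.25, 9.93, 9.74 and 9.88 (log2) in control rats 1 to 4 and at 10.29, 10.11, 10.03 and 9.74 in HP rats 1 to 4. The HP values enclosed all control values, the lowest of each diet were nearly level, and control rat 1 lay close to HP rat 1. The means were 9.95 ± 0.21 and 10.04 ± 0.23 (SD, n = 4), a log2 difference of 0.09 (SE 0.13, limma; 95% interval -0.21 to 0.39), with an exact permutation p of 0.6. Without control rat 1 the difference was 0.19 with 3 of 4 HP diet-fed rats above the other control rats (rank product FDR 0.0687), without HP rat 4 it was 0.19 (FDR 0.150), and without HP rat 1 it was 0.00665. The upper end of the interval over all 8 rats, 0.39, was below the difference of 0.93 for Fgf21. These are values of transcripts, and the ATF4 protein was not measured here.

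Atf5 (1372601_at), a related factor tied to mitochondrial stress, read 10.90, 11.08, 11.001 and 10.73 in control rats 1 to 4 against 10.90, 10.66, 10.74 and 10.89 in HP rats 1 to 4. The HP diet-fed rats lay toward the low end of the control range. The log2 difference was -0.13 (SE 0.09, 95% interval -0.33 to 0.07; exact permutation p = 0.257). Ddit3 (1369590_a_at), which encodes the pro-apoptotic factor CHOP, gave 7.23 in all 8 rats, with a span of 0.00064, and was not measured.

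Trib3, a pseudokinase that binds AKT and also ATF4, was read by 3 probe sets. At 1386321_s_at the control rats 1 to 4 had 7.98, 7.56, 7.43 and 7.27 and the HP rats 1 to 4 had 8.19, 7.80, 8.06 and 7.59. HP rats 1 and 3 were above every control rat, while control rat 1 was above HP rats 2 and 4. The means of 7.56 ± 0.30 and 7.91 ± 0.27 (SD, n = 4) differed by 0.35 (SE 0.18, 95% interval -0.05 to 0.75), a ratio of 1.27 (0.965 to 1.68). Its rank product FDR was 0.00722, its adjusted limma p 0.433 and its exact permutation p 0.143.

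The second Trib3 probe set, 1370694_at, read 7.22, 6.86, 6.86 and 6.86 in control rats 1 to 4 and 7.24, 7.07, 7.25 and 6.96 in HP rats 1 to 4. Control rat 1 stood apart from the other 3 control rats, which lay below all 4 HP diet-fed rats. The difference was 0.18 (SE 0.12, 95% interval -0.09 to 0.45), with an FDR of 0.0461 by rank products, an adjusted limma p of 0.527 and an exact permutation p of 0.171.

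At the third, 1370695_s_at, the control rats 1 to 4 had 7.97, 7.78, 7.52 and 7.52 and the HP rats 1 to 4 had 7.92, 7.79, 7.95 and 7.80, so that control rat 1 was the highest of all. The difference of 0.17 (SE 0.11, 95% interval -0.09 to 0.43) was not called (FDR 0.0978; exact permutation p = 0.286). The 3 probe sets followed one another over the 8 rats, with Pearson's r of 0.860, 0.902 and 0.957, given as a description since they share their target.

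The Trib3 call turned on single rats. Without control rat 1 all 4 HP diet-fed rats were above the other 3 control rats at all 3 probe sets, where 8.5% of the 4155 probe sets then had such a gap; the differences became 0.49 (1386321_s_at), 0.27 (1370694_at) and 0.26 (1370695_s_at), with FDRs of 0.000887, 0.00902 and 0.0105, where rank products called 14.1% of the 4155 higher and 6.04% lower. The limma fit then placed all 3 higher at an unadjusted p under 0.05, as it did 9.03% of the 4155, and 0 of the 4155 after adjustment. Without HP rat 1, or without HP rat 3, no Trib3 probe set was called (FDR 0.0883 and 0.0736 at 1386321_s_at), and without any 1 of the other rats 1386321_s_at alone was. The number of higher calls also moved over all 4155 probe sets, with 305 to 587 without a control rat, 85 to 127 without an HP rat and 353 with all 8. Trib3 had 3 calls where this number was 587 (without control rat 1) and 1 where it was 305 to 393 (without another control rat). It had 0 at 127 and 101 (without HP rat 1 or HP rat 3) and 1 at 85 and 108 (without HP rat 2 or HP rat 4). The part of this number in the Trib3 calls was not tested. When rank products ranked the 4155 alone, no Trib3 probe set was called (FDR 0.290 at 1386321_s_at). The FDR of every other measured member rose as well, that of Atf4 from 0.251 to 0.936, and Fgf21 was still called (FDR 0.0015). The share of the 4155 called under this ranking is not given here.

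**Figure D2:**
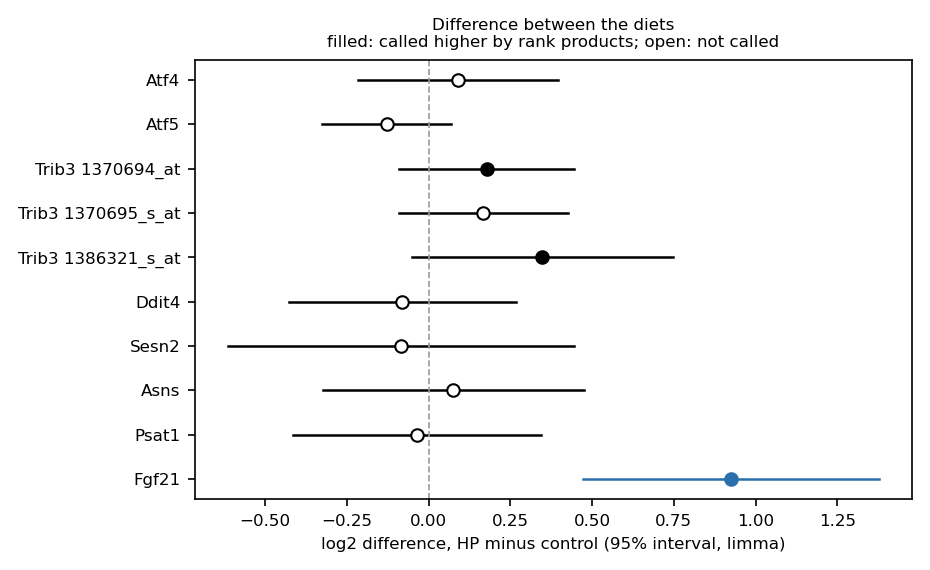
Log2 difference, HP minus control (horizontal axis), of the 9 measured probe sets and of Fgf21 (blue), with limma's 95% interval as a line (n = 4 per diet). Filled points were called higher by rank products. The intervals of all 9 probe sets include 0, and that of Fgf21, 0.47 to 1.38, does not. The intervals are not adjusted for the number of probe sets, and the adjusted limma p of Fgf21 was 0.210.

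Ddit4 and Sesn2 both restrain the growth kinase mTORC1, Ddit4 (REDD1) through the TSC complex and Sesn2 as a leucine sensor. Ddit4 (1368025_at) read 7.07, 7.19, 7.43 and 6.81 in control rats 1 to 4 and 6.77, 7.18, 7.03 and 7.21 in HP rats 1 to 4. The diets lay over each other, with a difference of -0.08 (SE 0.15, 95% interval -0.43 to 0.27; exact permutation p = 0.571).

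Sesn2 (1391607_at) read 7.90, 8.46, 8.68 and 7.46 in control rats 1 to 4 and 8.10, 8.02, 8.01 and 8.03 in HP rats 1 to 4. The means were alike, 8.12 and 8.04, but the control rats were spread (SD 0.55) and the HP diet-fed rats close together (SD 0.04); the difference between these spreads was not tested. The log2 difference was -0.08 (SE 0.23, 95% interval -0.61 to 0.44; exact permutation p = 0.83), so that the interval leaves room for a fall or a rise by more than 0.4. The other Sesn2 probe set, 1396901_at, gave 6.70 in all rats and was not measured.

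Asns, the enzyme that makes asparagine and among the best known ATF4 targets, read 6.34, 6.81, 6.86 and 6.27 (1387925_at) in control rats 1 to 4 and 6.35, 6.78, 6.60 and 6.85 in HP rats 1 to 4. Each diet held low and high rats, and the difference was 0.08 (SE 0.18, 95% interval -0.32 to 0.47; exact permutation p = 0.714). Serine is made from a glycolytic intermediate in 3 steps by Phgdh, Psat1 and Psph. Psat1 (1372665_at), the aminotransferase of the second step, read 6.53, 7.35, 7.04 and 6.96 in control rats 1 to 4 and 6.86, 7.01, 6.79 and 7.08 in HP rats 1 to 4. All HP values lay within the control range, and the difference was -0.03 (SE 0.17, 95% interval -0.41 to 0.34; exact permutation p = 0.857). Phgdh (1367811_at), the dehydrogenase of the first step, gave 6.41 in every rat and Psph (1375964_at), the phosphatase of the last, 7.36, so these steps were not measured.

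The adjusted limma p-values of the 9 probe sets ran from 0.433 to 0.951. The exact test, over the 70 ways to pick 4 of 8 rats, cannot give a p under 0.0286, and its values for the 9 ran from 0.143 to 0.857, all two-sided. A near constant probe set shows neither absence nor presence of its transcript: the summary leaves almost no difference where the probes of a set share none, which held for 5 of 11 named hepatocyte markers, Alb at a level of 14.53 included.

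Fgf21 (1387643_at) read 7.72, 7.37, 6.98 and 7.31 in control rats 1 to 4 and 7.95, 8.10, 8.28 and 8.75 in HP rats 1 to 4. All 4 HP diet-fed rats were above all 4 control rats, by 0.93 on average (SE 0.20, 95% interval 0.47 to 1.38), a ratio of 1.90 (1.39 to 2.60). The adjusted limma p of Fgf21 was 0.210, so that the fit did not call it either. Its exact permutation p was 0.0286, the smallest this test can give. The place of Fgf21 in the question was chosen with this rise known, so these values are a description. The difference for Fgf21 exceeded that of the members by 0.58 (Trib3, 1386321_s_at) to 1.05 (Atf5). HP rat 4, with the highest Fgf21 of all, had the lowest Atf4 of all 8 rats and the lowest Trib3 of the HP diet-fed rats at 1386321_s_at and 1370694_at. Control rat 1 had the highest Fgf21 of the control rats, and also their highest Atf4 and Trib3.

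Within the diets, each value minus the mean of its diet, Fgf21 showed no relation to a member that passed a test. Pearson's r with the 9 probe sets ran from -0.36 (Sesn2) to 0.43 (Trib3, 1370695_s_at; Spearman's rho 0.62, n = 8). For the latter the exact permutation p within the diets was 0.306 for r and 0.146 for rho, and the adjusted p was 0.993 for r in all 9 relations. Atf4 gave r = -0.10 (rho -0.07, exact permutation p = 0.795 and 0.906), Asns -0.02 (rho 0, exact permutation p = 0.965 and 1) and Trib3 at 1386321_s_at -0.00471 (rho -0.02, exact permutation p = 0.993 and 1). Without the 2 rats farthest from the median of Fgf21, HP rat 4 and control rat 3, r ran from -0.69 (Psat1) to 0.76 (Trib3, 1370694_at). Without the 2 rats farthest in the centred values of Fgf21, HP rat 4 and control rat 1, it ran from -0.45 (Sesn2) to 0.51 (Trib3, 1370695_s_at), with 0.20 for Psat1 and 0.0527 for Trib3 at 1370694_at, so that these values turn on which rats are left out. A pooled r across diets is not given, since Fgf21 separates the diets.

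**Figure D3:**
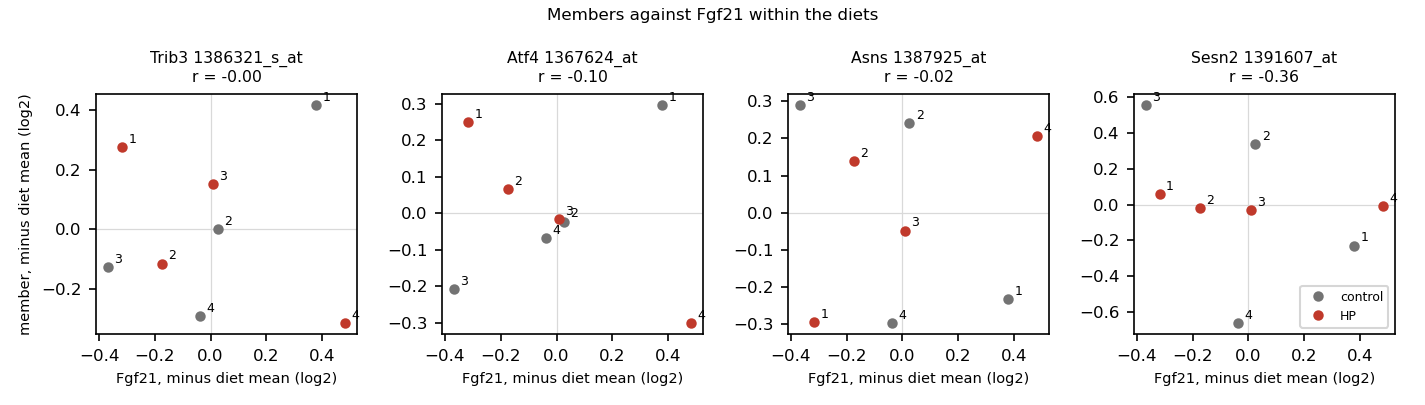
Trib3 (1386321_s_at), Atf4, Asns and Sesn2 against Fgf21, each as the log2 value minus the mean of its diet, in 4 control (grey) and 4 HP (red) rats with their replicate numbers. The points form no line in any panel, with r between -0.36 and -0.00471 (n = 8); HP rat 4 lies at the far right, low in Trib3 and Atf4.

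The 7 measured genes did not move as 1 block from rat to rat. Over the 21 pairs of genes, each at its probe set of highest mean and centred on its diet, Ddit4 and Asns went together most closely (r = 0.92, rho = 0.93, n = 8; exact permutation p = 0.00174 for r and 0.00347 for rho, adjusted over the 21 pairs 0.0365 and 0.0729). The r was 0.85 without control rat 4 and HP rat 1. Atf4 and Trib3 gave r = 0.71 (rho 0.60, exact permutation p = 0.0469 and 0.135, adjusted 0.346 and 0.529), which was 0.38 without control rat 1 and HP rat 4, while Atf4 and Asns gave -0.67 (rho -0.50, exact permutation p = 0.0990 and 0.273, adjusted 0.346 and 0.530). After adjustment no pair but Ddit4 and Asns passed by r, and no pair passed by rho.

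**Figure D4:**
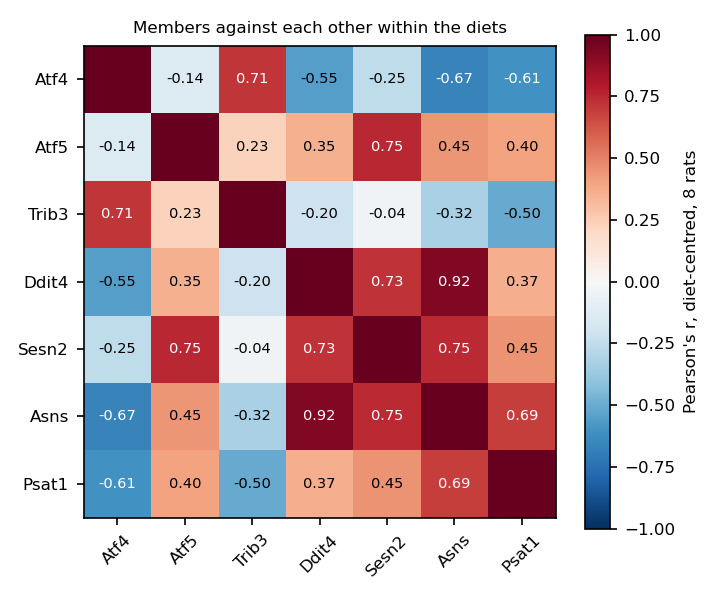
Pearson's r between the 7 measured genes over 8 rats, each value minus the mean of its diet (red positive, blue negative; Trib3 at 1370695_s_at). Ddit4, Sesn2, Asns and Psat1 are positive with one another (0.37 to 0.92), and Atf5 is positive with all 4 as well (0.35 to 0.75). Atf4 is negative with all 4 and positive with Trib3 (0.71).

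The named probe sets most like Trib3 (1370695_s_at) over the 8 rats, of 2807 searched, were those of Zfp260 (r = 0.97), Ptpn12 (0.97) and Nbn (0.96). Those most like Atf4 were Phf23 (r = 0.96), Jmjd1c (0.95) and Pawr (0.94). None of these 6 genes was called by rank products (lowest FDR 0.0504, Nbn), and the values are descriptions without a test.

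Of 25 other known ATF4 targets 11 were measured, with 2 called higher (8.5% of the 4155 probe sets were), 1 lower (12.1% of the 4155) and a median log2 difference of -0.09. With so few genes these counts are not read as a result about the list. Eif4ebp1, an inhibitor of translation initiation, was higher at 8.29 ± 0.10 against 8.00 ± 0.10 (SD, n = 4), with no overlap of the diets (0.29, SE 0.08, rank product FDR 0.00719). The stress-induced coregulator Nupr1 was called higher as well (0.24, SE 0.14, FDR 0.0267), and Gpt2, the mitochondrial alanine aminotransferase, lower (-0.30, SE 0.13, FDR 0.0231), both with overlapping diets. Atf3, Chac1, Ppp1r15a, Gdf15 and 9 further targets were named but not measured, and Pycr1 had no probe set under its single symbol.

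In the list of eIF2α kinases and translation control, 6 of 18 genes were measured and Eif4ebp1 alone was called (median -0.07); the kinases Eif2ak1, Eif2ak3 and Eif2ak4 were not measured. Of 11 amino acid transporters 4 were measured, with Slc3a2, the heavy chain shared by several exchangers, called lower (-0.18, SE 0.06, FDR 0.0345, no overlap; list median -0.17). Of 20 cytosolic aminoacyl-tRNA synthetases, which charge tRNAs and many of which respond to ATF4, 11 were measured and 0 called higher, while Nars1 (-0.20), Yars1 (-0.17), Iars1 (-0.15) and Eprs1 (-0.15) were called lower, each without overlap (median -0.10). Over the 4155 probe sets 12.1% were called lower and 4.07% had every HP diet-fed rat below the control rats.

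Of 26 genes that use serine, glycine and one-carbon units 14 were measured, with 0 higher and 4 lower (median -0.15), beside 8.5% and 12.1% of the 4155. Sds, the liver enzyme that breaks down serine, was lower by the largest amount, 9.94 ± 0.66 in control and 8.84 ± 0.11 in HP diet-fed rats (SD, n = 4), a difference of -1.11 (SE 0.28). Gldc of the glycine cleavage system (-0.20), glycine N-methyltransferase Gnmt (-0.18) and cystathionine β-synthase Cbs (-0.18) were the others. The list of mTORC1 and growth arrest genes had 3 of 16 measured and no call, with the largest differences in Cdkn1a (-0.17, FDR 0.149) and Deptor (0.14, FDR 0.0956).

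The XBP1 and ATF6 arms of the endoplasmic reticulum stress response had 18 of 24 genes measured, 1 called higher and 8 lower (median -0.16), beside 8.5% and 12.1% of the 4155. Creld2 (-0.34, SE 0.08, FDR 0.00654) and the chaperone Hyou1 (-0.26) were lower without overlap of the diets. The mannosidase-like Edem1 (-0.26, SE 0.17) and the disulphide isomerase Pdia3 (-0.25) were lower with overlapping diets. Of the 18 genes 4 had every HP diet-fed rat below the control rats, beside 4.07% of the 4155. The transcription factor Xbp1 was called higher (0.22, SE 0.23, FDR 0.0401), also with overlapping diets. The list of PPARα targets, which includes Fgf21, had 17 of 30 measured genes called higher and 0 lower (median 0.34), and 12 of the 30 had every HP diet-fed rat above the control rats, beside 8.5% and 3.1% of the 4155. Acot1 (1.66), Acot4 (0.81) and Vnn1 (0.62), beside Fgf21 (0.93), had the largest differences. In all lists the limma fit called 0 genes after adjustment. At an unadjusted p under 0.05 it placed 17 of the 30 PPARα targets higher and 8 of the 18 endoplasmic reticulum genes lower. Over the 4155 probe sets 5.37% were higher and 7.29% lower by this measure. The other lists had 0 or 1 gene higher and 0 to 4 lower, with 4 in the serine list.

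**Figure D5:**
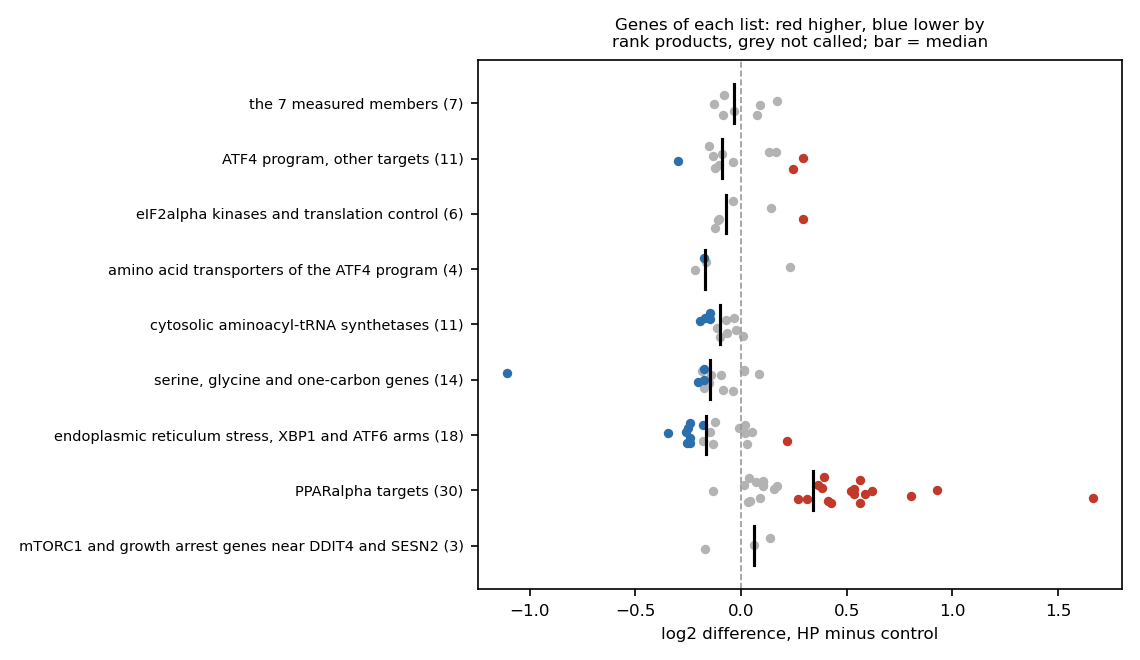
Log2 difference, HP minus control, of each measured gene of 9 gene lists (1 point per gene, number of genes in brackets, vertical bar at the median). Red and blue points were called higher and lower by rank products; the 7 measured ATF4-responsive genes, with Trib3 at its uncalled probe set 1370695_s_at, lie around 0, and the PPARα targets lie mostly to the right.

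These list counts also moved with single rats. Without 1 of the control rats the lower calls fell to 0 among the tRNA synthetases, 0 to 2 in the endoplasmic reticulum list and 1 or 2 in the serine list, while without 1 of the HP rats they were 2 to 4, 7 or 8 and 3 or 4; over all 4155 probe sets the lower calls were 71 to 251 and 398 to 541, and 503 with all 8 rats. Higher PPARα calls were 14 to 20 under all 8 omissions. The list medians kept their sign, except those of the other ATF4 targets (0.01 without control rat 1) and of the mTORC1 genes (-0.08 without HP rat 3). The level of the PPARα list, the mean over its genes of the log2 value minus the gene's own mean, was 0.07 in control rat 1 and -0.37 to -0.19 in the other control rats, against 0.10 to 0.22 in HP diet-fed rats; control rat 1, the control rat highest in Trib3, was thus also the one nearest the HP diet-fed rats on this list, and the part of one in the other was not tested.

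The arrays correlated with each other at 0.968 to 0.992 and no 2 were identical. Their medians over all probe sets lay between 6.652 and 6.653, and those over the 4155 spanning probe sets between 8.76 and 8.81. Marker lists of liver cell types overlapped between the diets in their mean level for hepatocytes (-0.02 to 0.06 in control, -0.10 to 0.03 in HP diet-fed rats). Cps1 was 1 of 6 measured hepatocyte markers called and was lower without overlap (-0.27, FDR 0.0172). Kupffer cell levels overlapped as well (-0.12 to 0.21 and -0.14 to 0.06), but all 9 measured markers had a lower mean in HP diet-fed rats. Their differences ran from -0.33 to -0.04 (median -0.09, beside -0.02 over all 4155). Of the 9, Cd5l alone was called, and was lower (-0.33). Over the 4155 probe sets 12.1% were called lower. For stellate cells 0 of 6 measured markers were called and levels overlapped (-0.13 to 0.09 and -0.07 to 0.12). For bile duct 0 of 2 were called. For sinusoidal endothelium, 2 of 4 measured markers were called higher (8.5% of the 4155 were), Kdr (0.26) and Stab2 (0.23), with list levels of -0.14 to 0.00439 and -0.01 to 0.16. Of 8 named lymphocyte markers 0 were measured. For blood cells 1 of 6 named markers was measured, for pancreas 1 of 12 and for adipose tissue 1 of 6. The others were near constant, so a call of 1 gene is not read as a shift of its tissue. Hbb of blood (0.24, FDR 0.0296) and Cidea of adipose tissue (0.31, FDR 0.0197) were called higher, and Cela1 of pancreas was not called (0.19, FDR 0.0571). The part of these marker differences in the values of the members was not tested.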

How the data were processed

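Liver RNA (Trizol and RNeasy) was labelled as biotinylated aRNA with a 3' IVT kit and hybridized to Affymetrix rat arrays, 1 per rat. The deposited values are on the log2 scale: the authors summarised each probe set with FARMS in R 2.13.1, a factor model that sets probe sets without shared probe signal nearly constant. Normalization across the arrays was not given in the sources used here. None was added. FARMS can therefore leave a real change in a dim transcript unseen: 1.27% of probe sets with a mean of 5 to 7 spanned 0.05, against 70.1% of those with a mean of 11 to 15. The number of arrays limits the precision.

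Probe sets with 1 symbol were named from the platform annotation (20826; 436 had several symbols and 9780 none). A gene with several probe sets stands in a list by that of highest mean among those spanning at least 0.05. Members and lists were chosen with earlier results of these data known. Named are all members and Fgf21, at most 4 called genes per list by size (the 2 largest where none is called), and 3 genes most like Trib3 and Atf4. Xbp1, the 1 gene of the endoplasmic reticulum list called higher, was named beyond these 4. The values of Fgf21 against the members and the 21 pairs were added after values had been seen.

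Rank products were computed in Python 3.11.15 (numpy 2.4.6) on all 31099 probe sets, with 1000 permutations and an FDR under 0.05. Linear models used limma 3.58.1 in R 4.3.3 (trend, robust; statmod 1.5.0) on the 4155 probe sets spanning 0.05, two-sided, control probe sets left out. Relations were tested over all 576 orders within the diets. Lists are described by counts and medians. Scripts were tested on simulated data. Alternatives were quantile normalization, centring, filters, array weights, a replicate block and leaving out each rat. Other software was pandas 2.3.3, scipy 1.17.1 and matplotlib 3.10.9.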

Additional observations from a re-analysis of the deposited data

Results flagged for a closer look

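Trib3 at 1370694_at was 7.22 (log2) in control rat 1, far from 6.86 in each of the other 3 control rats; its gap to the nearest was 0.987 of the range of the group. Chance alone marks about 1 group of 20 in this way, and 20 groups were examined.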

How the results depend on the processing

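The number of Trib3 probe sets called higher by rank products, 2 with all rats, was 1 after quantile normalization, 1 with the dimmest 25% of probe sets left out, 0 when only the 4155 spanning probe sets were ranked, and 0 to 3 without 1 rat. It was 3 without control rat 1, 0 without HP rat 1 or HP rat 3, and 1 without any other rat; the cause was not tested. No member was called lower under any of these settings. The share of all probe sets called is not given here for quantile normalization, the filter on dim probe sets or the ranking of the 4155 alone. The Trib3 counts under those 3 settings are thus not read as a result about Trib3. Unadjusted limma p-values under 0.05 numbered 0 with all rats, 3 with array weights, 1 with the replicate block and 0 to 3 without 1 rat (3 without control rat 1), and adjusted ones 0 throughout. The share of the 4155 under 0.05 with array weights or the block is not given here, and without control rat 1 9.03% were higher. Replicate numbers do not pair the rats (r of same-numbered rats -0.20 to 0.48). Of the same-numbered rats, only control rat 1 and HP rat 1 correlated best with each other (0.48). The exact test passed 0 probe sets, or 0 to 1 without 1 rat. The sign turned for Asns with array weights (-0.0489) and for Fgf21 with Asns after centring (r = 0.0232). Without 1 rat, log2 differences ran from 0.00665 to 0.19 for Atf4, -0.20 to -0.0768 for Atf5, -0.0237 to 0.17 for Asns, -0.19 to 0.0215 for Ddit4, -0.31 to 0.10 for Sesn2, -0.18 to 0.0938 for Psat1 and 0.76 to 1.05 for Fgf21. For Trib3 they stayed positive, at 0.25 to 0.49 (1386321_s_at), 0.14 to 0.27 (1370694_at) and 0.11 to 0.26 (1370695_s_at). Without 1 rat, the r with Fgf21 ran from -0.69 to 0.62 for Atf4, -0.28 to 0.24 for Atf5, -0.66 to 0.71 and -0.63 to 0.58 for Trib3 (1370694_at, 1386321_s_at), -0.29 to 0.56 for Ddit4, -0.40 to 0.34 for Asns and -0.56 to 0.48 for Psat1. It kept its sign for Trib3 at 1370695_s_at (0.0182 to 0.80) and for Sesn2 (-0.67 to -0.0105). The r passed in 0 of 9 relations throughout. With 4 arrays per diet, intervals of ±0.2 to ±0.5 remain, and dim transcripts are held near constant by the summary.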
